A study of Mus musculus with 6 samples.

Results

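Complement genes were followed across the immune cells of a mouse melanoma: the C1q chain genes C1qa, C1qb and C1qc, the component gene C3, the protease gene Cfb (complement factor B), the stabiliser gene Cfp (properdin), and the receptor genes C3ar1 and C5ar1. These 8 genes were chosen by symbol among the 32285 genes of both count matrices, and each symbol matched 1 row. Complement genes were left out of the clustering that made the cell classes, so these genes did not shape them.

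The cells came from subcutaneous tumours of YUMM1.7, a mouse melanoma line, in female mice aged 8 weeks of the strain C57BL/6JRccHsd. Mice labelled LysM-Cre tg/wt and Nr3c1 fl/fl (LysM-Cre mice below) carry Cre recombinase under the Lyz2 promoter, which is active in myeloid cells, and mice labelled Nr3c1 fl/fl only (floxed mice below) carry the same floxed alleles without Cre. Nr3c1 encodes the glucocorticoid receptor. Mice of both genotypes were dosed with an isotype control or with anti-PD-1 (12.5 mg/kg, 2 doses weekly over 3 weeks), starting about day 7 after injection of 250000 cells, and tumours were collected on day 28. This gave 4 mice in each of 4 conditions: LysM-Cre anti-PD-1, floxed anti-PD-1, LysM-Cre isotype and floxed isotype. Each mouse was tagged with a hashtag antibody, 8 mice were mixed into each of 2 pools with 2 mice of each condition, and sorted CD45-positive cells were profiled by CITE-seq, which counts messenger RNAs and antibody tags as unique molecular identifiers (UMIs) in single cells. Mouse numbers below only name mice.

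Complement is a protein cascade of innate immunity. The classical pathway starts when C1q, built from the products of C1qa, C1qb and C1qc, binds immune complexes or dying cells; the alternative pathway runs through C3 and factor B, whose cleaved forms make the C3-cleaving enzyme that properdin stabilises. Cleavage of C3 and C5 releases the peptides C3a and C5a, which bind the receptors encoded by C3ar1 and C5ar1 on myeloid cells. Much of the body's C3 and factor B comes from the liver, whereas C1q is made largely by macrophages and related myeloid cells in tissues.

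The 17239 cells assigned to 1 mouse ranged over 134 to 3098 per mouse, with 1546045 to 29701640 gene UMIs per mouse. Pools E5 and E6 held medians of 8475 and 8905 gene UMIs per barcode, and 789 barcodes passing the cell filter occurred in both pools. Clusters were called by cell type only as "-like", from marker genes, and 25 of 29 clusters were named in 14 classes. Monocyte-like cells numbered 5665 and macrophage-like cells 2491. By marker genes, macrophage-like cells carried Mrc1 at 747 CPM (UMIs scaled to 1000000 gene UMIs) and monocyte-like cells at 113 CPM, whereas Ly6c2 was at 46.5 CPM in macrophage-like and 1207 CPM in monocyte-like cells. A red cell-like cluster of 65 cells and fibroblast-like cells remained in the CD45 sort. The 3′ counts of Nr3c1 are only a limited check of the genotype, since which part of the gene is deleted is not given in the sources used here. In macrophage-like cells Nr3c1 averaged 34.7 ± 19.2 CPM in LysM-Cre mice (SD, n = 8, range 20.5 to 79.4) and 62.3 ± 12.5 CPM in floxed mice (n = 8, range 51.6 to 84.1), so the ranges overlapped. In monocyte-like cells it averaged 39.7 ± 11.4 CPM in LysM-Cre and 62.6 ± 6.44 CPM in floxed mice, and in CD8 T-like cells, in which the Lyz2 promoter is not active, 89.4 ± 21.3 CPM in LysM-Cre and 86.3 ± 17.3 CPM in floxed mice.

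The C1q genes lie side by side on mouse chromosome 4 (mm10): C1qb (ENSMUSG00000036905) at 136880126 to 136886200, C1qc (ENSMUSG00000036896) at 136889801 to 136892936 and C1qa (ENSMUSG00000036887) at 136895916 to 136898844. C3 (ENSMUSG00000024164) and Cfb (ENSMUSG00000090231) are on chromosome 17, Cfp (ENSMUSG00000001128) on X, C3ar1 (ENSMUSG00000040552) on 6 and C5ar1 (ENSMUSG00000049130) on 7. The promoter windows of C1qb and C1qc, whose levels were correlated across cells and classes, are shown from 250 bases before to 50 bases after the start (RefSeq, GRCm38.p6, minus strand, printed 5′ to 3′). The C1qb window is chr4:136886151-136886450, with the letters TGCTGA (the core recognised by MAF family factors) from -131 and GAGGAA (the core recognised by PU.1) from -30 in capitals. The C1qc window is chr4:136892865-136893164, with the complement of GAGGAA, read on the other strand, from -193 in capitals.
C1qb: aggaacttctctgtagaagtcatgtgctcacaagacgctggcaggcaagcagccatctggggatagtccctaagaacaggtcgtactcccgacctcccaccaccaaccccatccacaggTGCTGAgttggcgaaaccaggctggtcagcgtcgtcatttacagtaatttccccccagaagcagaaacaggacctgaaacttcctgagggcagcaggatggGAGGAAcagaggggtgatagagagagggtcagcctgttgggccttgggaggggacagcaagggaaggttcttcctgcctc
C1qc: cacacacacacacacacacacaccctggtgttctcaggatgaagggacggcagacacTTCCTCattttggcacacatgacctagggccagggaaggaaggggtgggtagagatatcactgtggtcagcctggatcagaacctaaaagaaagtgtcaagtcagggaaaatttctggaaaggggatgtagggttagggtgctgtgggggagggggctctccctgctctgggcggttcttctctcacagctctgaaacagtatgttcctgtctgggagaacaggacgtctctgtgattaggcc
Both strands were searched for 4 motifs, which did not overlap in these windows. TGCTGA was present in the C1qb but not the C1qc window and occurred in 19.48% of 32851 mouse promoter windows of the same length; GAGGAA was in both and occurred in 28.28%. The interferon response element was in neither and occurred in 3.44%, and AGATAA, the GATA core, was in neither and occurred in 11.18%. Of the 8 genes, 6 matched the promoter table; among the others TGCTGA matched C3, C3ar1 and C5ar1 once each and GAGGAA matched Cfp 2 times. These matches describe letters and show no binding.

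The C1q genes were highest in macrophage-like cells. C1qa averaged 5645 ± 573 CPM in macrophage-like cells (SD over 16 mice) and 1383 ± 438 CPM in monocyte-like cells (n = 16), and then 450 ± 203 CPM in regulatory T-like (n = 9), 374 ± 280 CPM in CD4 T-like (n = 9), 368 ± 207 CPM in neutrophil-like (n = 14), 288 ± 157 CPM in cDC2-like (n = 11), 262 ± 163 CPM in fibroblast-like (n = 15), 169 ± 46.8 CPM in CD8 T-like (n = 15), 110 ± 36.2 CPM in NK-like (n = 14) and 102 ± 55.4 CPM in mast or basophil-like cells (n = 3). Neighbours in an order of levels are called apart below where the difference of their means exceeded the sum of their SDs. By that rule the first 2 steps of this order were apart, and no neighbours from regulatory T-like cells down were. C1qb averaged 5139 ± 710 CPM in macrophage-like and 1591 ± 525 CPM in monocyte-like cells, and C1qc 3474 ± 482 and 782 ± 272 CPM in the same classes. Macrophage-like cells held 63.9% of all C1qa UMIs, 59.1% of C1qb UMIs and 65.9% of C1qc UMIs, and monocyte-like cells 27.0% of C1qa, 32.0% of C1qb and 25.4% of C1qc UMIs. In classes with too few mice for an SD, the level over all cells was 977 CPM of C1qa in B-like, 657 CPM in mature DC-like and 209 CPM in pDC-like cells. The red cell-like cluster reached 3517 CPM, but macrophage markers were its second-best match (mean log2 fold 2.37). Its leading genes included Fcrls and Pf4, which also led in a macrophage-like cluster. The red cell-like levels given below carry the same limit, and the part of macrophage RNA in them was not tested. These levels describe classes made from the same cells, and no test was run between classes.

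**Figure D1:**
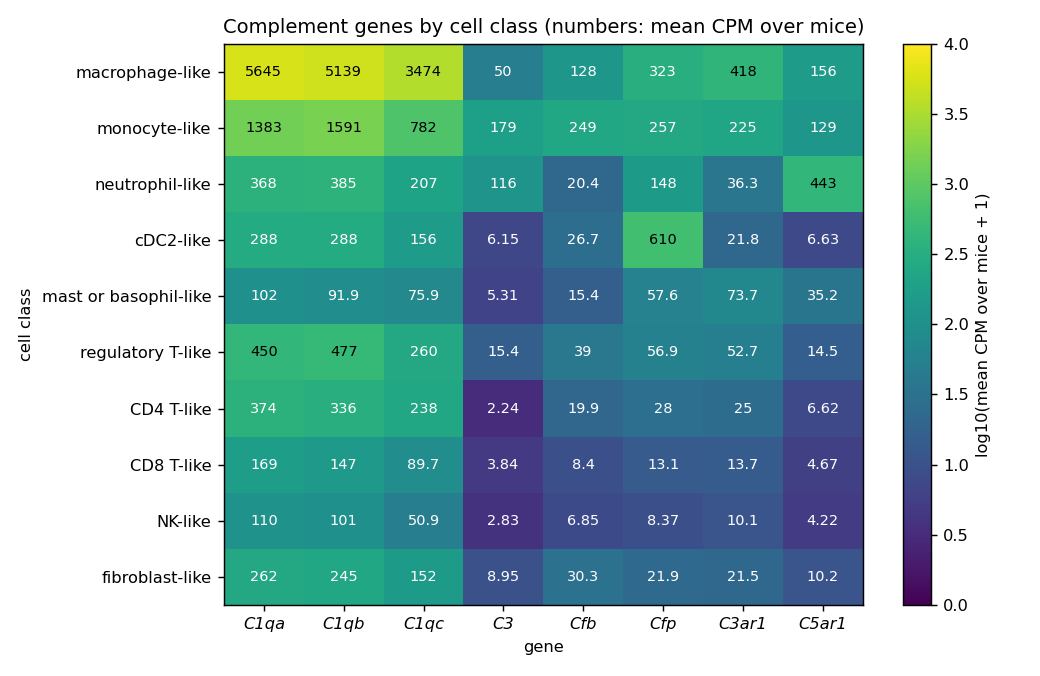
Mean level of each complement gene (columns) in 10 cell classes (rows), averaged over mice with 20 or more such cells; the number in each cell is the mean CPM and the colour is log10(mean CPM + 1). The C1q columns peak in macrophage-like cells, C3 and Cfb in monocyte-like cells, Cfp in cDC2-like cells and C5ar1 in neutrophil-like cells.

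C1q RNA was also counted at a low level in lymphocytes. With each cell thinned to 1000 gene UMIs, at least 1 C1qa UMI was found in 94.6 ± 3.07% of macrophage-like cells (n = 16 mice), 37.6 ± 8.44% of monocyte-like cells, 25.2 ± 8.40% of neutrophil-like cells (n = 14), 15.9 ± 6.61% of CD8 T-like cells (n = 15) and 13.8 ± 5.95% of NK-like cells (n = 14). Without thinning the shares were 98.0% in macrophage-like, 74.7% in monocyte-like and 60.8% in CD8 T-like cells. Regulatory T-like cells had 23.3 ± 6.24% (n = 9) and CD4 T-like cells 21.2 ± 6.34% (n = 9). T and NK cells are not known to make C1q, so the shares of these 4 T-like and NK-like classes are read as background. Neither cDC2-like cells, at 13.7 ± 5.28% (n = 11), nor neutrophil-like cells were apart from any of them. The share in monocyte-like cells was apart from those in CD8 T-like, CD4 T-like and NK-like cells but not from that in regulatory T-like cells. B-like cells were too few per mouse for an SD. Pooled over mice, 34.4% of 96 B-like cells had a C1qa UMI at this depth, against 35.8% of monocyte-like cells. Before thinning, the median depth of the cells kept was 12579 UMIs in macrophage-like and 5849 UMIs in CD8 T-like cells; 72 macrophage-like and 19 CD8 T-like cells were too shallow and were left out. Within classes the C1q genes were correlated across cells: the correlation of log levels was 0.85 for C1qa with C1qb, 0.84 for C1qa with C1qc and 0.81 for C1qb with C1qc over 2491 macrophage-like cells, and 0.83, 0.83 and 0.86 over 5665 monocyte-like cells. These cells share libraries and depth, so the correlations describe the data only. Across 14 classes, the genes most like C1qa among 11477 were Ms4a7 (Pearson r of log2 CPM 0.98), Mrc1 (0.98) and Abcc3 (0.97). For C1qc they were Ms4a7 (0.99), Ccl12 (0.98) and Apoe (0.98). Ms4a7, Mrc1 and Apoe are on the marker list that named the macrophage-like clusters, so their likeness follows in part from the naming.

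The proportions of the C1q transcripts differed between the classes that make most of them. The ratio of C1qb to C1qa UMIs averaged 1.16 ± 0.0906 in monocyte-like cells (SD, n = 16, range 1.03 to 1.38) and 0.908 ± 0.0576 in macrophage-like cells (n = 16, range 0.801 to 1.0015). Monocyte-like cells had the higher ratio in 16 of 16 mice, and C1qb exceeded C1qa in 16 of 16 mice in monocyte-like cells but in 1 of 16 in macrophage-like cells. Every one of the 6 monocyte-like clusters lay above every one of the 3 macrophage-like clusters, as the plot of the ratio shows. C1qc made up 20.7% of the C1q UMIs in monocyte-like and 24.5% in macrophage-like cells. Among neutrophil-like cells and the lymphocyte classes, C1qb exceeded C1qa in regulatory T-like cells (40.9% and 37.5% of C1q UMIs) and in neutrophil-like cells (39.4% and 38.4%), but not in CD8 T-like cells (36.3% and 41.5%), CD4 T-like cells (34.3% and 41.0%) or NK-like cells (39.1% and 40.9%).

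**Figure D2:**
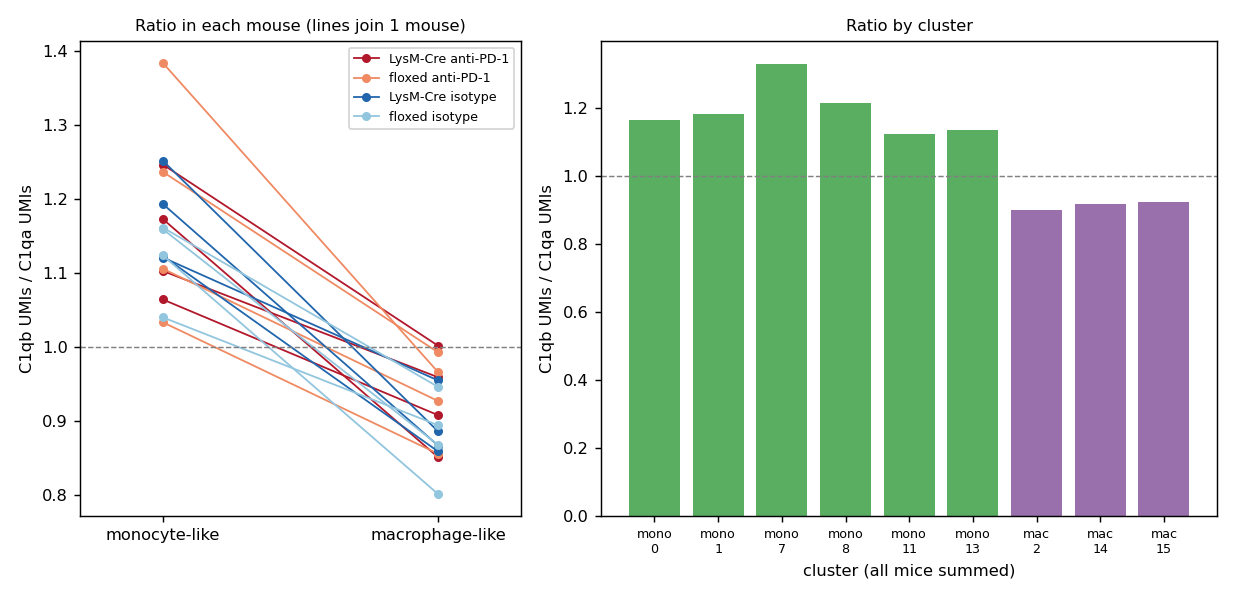
Ratio of C1qb to C1qa UMIs (vertical axes), per mouse in monocyte-like and macrophage-like cells (left, points joined within a mouse and coloured by condition) and per cluster with all mice summed (right, bars from 0; the dashed line is equal counts). The ratio is higher in monocyte-like cells in 16 of 16 mice.

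The first question of the design is whether deletion of the glucocorticoid receptor in myeloid cells went with other complement levels. Counts were summed per mouse and class and tested with edgeR over all genes of a class. In macrophage-like cells, C1qa was 5932, 6344, 5681 and 6166 CPM in the LysM-Cre mice given anti-PD-1, 5224, 5718, 4463 and 5359 CPM in the floxed anti-PD-1 mice, 5849, 5834, 6692 and 5760 CPM in the LysM-Cre isotype mice, and 5957, 4743, 5086 and 5517 CPM in the floxed isotype mice. Under anti-PD-1, 3 of the LysM-Cre mice lay above all floxed mice, and under isotype the groups overlapped through floxed isotype mouse 1. Averaged over treatments, LysM-Cre against floxed gave log2 changes of 0.23 (SE 0.07, edgeR adjusted p = 0.486) for C1qa, 0.24 (SE 0.09, adjusted p = 0.493) for C1qb and 0.24 (SE 0.10, adjusted p = 0.508) for C1qc. None passed after adjustment, and 0% of 9671 genes did in this comparison. At an unadjusted p under 0.05 these were 3 of the 8 complement genes, all higher, where 4.93% of all genes were called higher. The single contrasts gave 0.24 (SE 0.10, adjusted p = 0.364) for C1qa under anti-PD-1, and under isotype 0.23 (SE 0.10) for C1qa and 0.29 (SE 0.14) for C1qc (adjusted p = 0.99996 each), where 1.45% of all genes were called higher at an unadjusted p under 0.05. Anti-PD-1 against isotype left C1qa at 5191 ± 528 CPM against 5326 ± 527 CPM in floxed mice and 6031 ± 288 CPM against 6034 ± 440 CPM in LysM-Cre mice.

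The mixture of macrophage-like clusters varied between mice of the same group. Cluster 14, which had the highest C1q levels (6937 CPM of C1qa over all its cells, against 5702 in cluster 2 and 4747 in cluster 15), made up 36.0 ± 25.2% of the macrophage-like cells in LysM-Cre anti-PD-1 mice, 14.5 ± 9.17% in floxed anti-PD-1 mice, 33.5 ± 29.7% in LysM-Cre isotype mice and 19.1 ± 17.4% in floxed isotype mice (n = 4 each). Its part in the C1q levels was not tested. Within cluster 2 alone, C1qa averaged 5892 ± 448 CPM in LysM-Cre anti-PD-1 (n = 3), 5286 ± 258 in floxed anti-PD-1, 5639 ± 868 in LysM-Cre isotype and 5405 ± 446 CPM in floxed isotype mice (n = 4 each).

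In monocyte-like cells C1qa was 1361, 2478, 1406 and 1352 CPM in the LysM-Cre mice given anti-PD-1, 579, 1444, 1367 and 1388 CPM in floxed anti-PD-1 mice, 1793, 960, 1855 and 771 CPM in LysM-Cre isotype mice and 1157, 1291, 1549 and 1376 CPM in floxed isotype mice. All 4 groups overlapped. None of the 8 genes passed in any of 7 contrasts in monocyte-like cells, at the adjusted or at the unadjusted threshold of 0.05, and C1qa changes ran from -0.14 to 0.46 on the log2 scale. Within the monocyte-like clusters with enough mice (0, 1 and 11), 26 of 120 tests (21.7%) passed the unadjusted threshold and 0 the adjusted one. Over all genes, 5.7% of tests in cluster 0, 6.45% in cluster 1 and 4.62% in cluster 11 passed the unadjusted threshold. The tests are not independent, since they share mice. In cluster 1, LysM-Cre against floxed under anti-PD-1 gave 0.85 (SE 0.32, edgeR adjusted p = 0.427) for C1qa, 0.84 (SE 0.30, adjusted p = 0.409) for C1qb and 0.98 (SE 0.32, adjusted p = 0.375) for C1qc, where 9.7% of all genes passed the unadjusted threshold in either direction and 0.0297% the adjusted one. In cluster 11, anti-PD-1 against isotype in floxed mice gave -0.60 (SE 0.18, adjusted p = 0.646) for C1qa. Over all genes of this class 0.0316% passed adjustment for genotype averaged over treatments, and 0.0105% for anti-PD-1 averaged over genotypes and for anti-PD-1 in floxed mice.

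**Figure D3:**
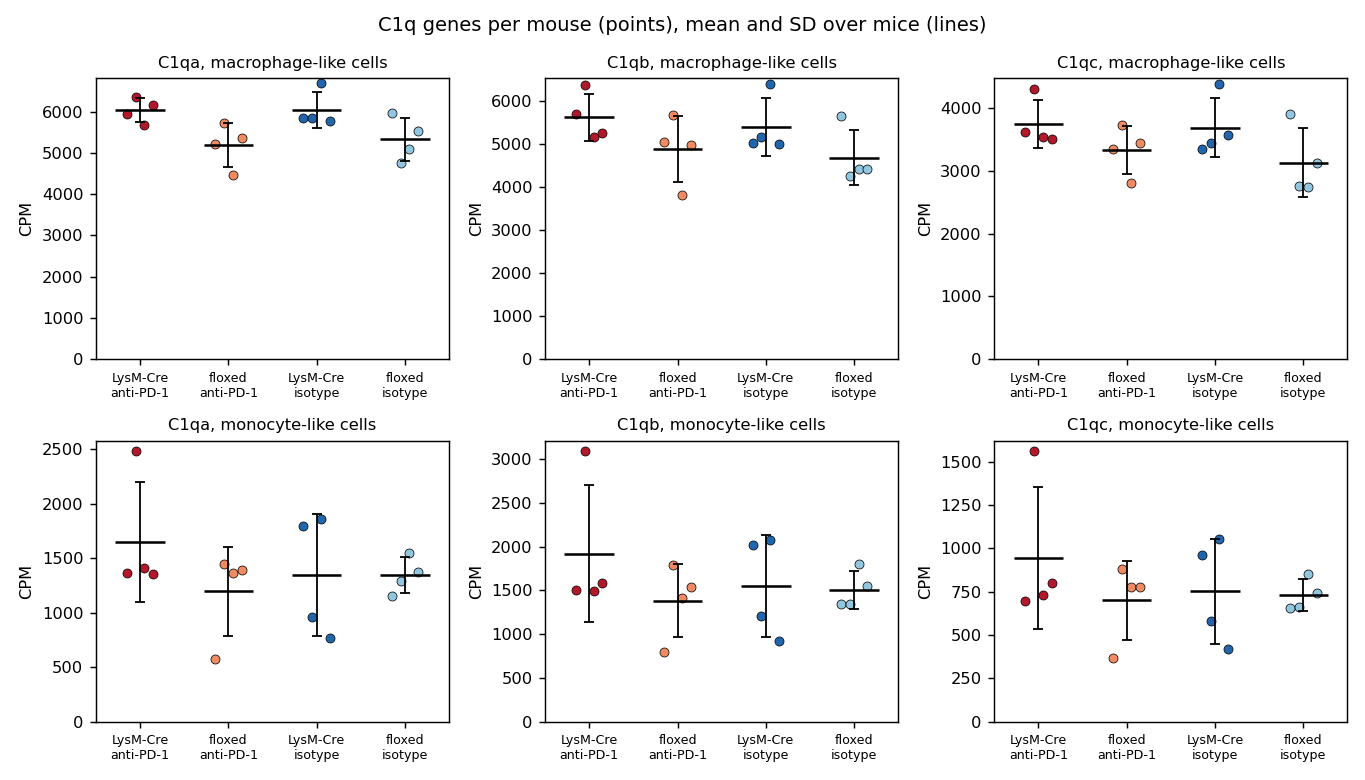
C1qa, C1qb and C1qc in each mouse (points, CPM of summed counts) in macrophage-like cells (top) and monocyte-like cells (bottom) for the 4 conditions, with lines for the mean and SD over 4 mice. In macrophage-like cells the LysM-Cre means lie above the floxed means under both treatments with overlapping mice; 1 LysM-Cre anti-PD-1 mouse stands above all others in monocyte-like cells.

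In CD4 T-like, cDC2-like and fibroblast-like cells, C1q genes passed the unadjusted threshold but not the adjusted one, and the levels of macrophage markers are given beside them. In CD4 T-like cells, C1qa was 204, 219 and 233 CPM in the 3 LysM-Cre isotype mice with enough cells, against 931, 248, 631 and 609 CPM in floxed isotype mice, so the groups did not overlap. LysM-Cre against floxed under isotype gave -1.45 (SE 0.32) for C1qa, -1.42 (SE 0.30) for C1qb and -1.38 (SE 0.30) for C1qc, each with an edgeR adjusted p of 0.129. Over all genes of this class, 0.0478% passed adjustment and 3.08% were lower at an unadjusted p under 0.05, and the C1q genes were the only ones of the 8 that passed the filter on low counts. The sum of 8 macrophage markers was 1080 ± 216 CPM in these LysM-Cre mice (range 882 to 1311) and 2583 ± 1447 CPM in the floxed mice (range 1161 to 4291), with 8 of 8 markers lower and none at 0. Their part in the C1q difference was not tested. Without floxed isotype mouse 2 all 3 C1q genes passed, at -1.80 for C1qa (adjusted p = 4.58e-05), -1.76 for C1qb (adjusted p = 5.92e-05) and -1.67 for C1qc (adjusted p = 2.96e-04). With Scrublet doublets removed the changes were -0.06 for C1qa, -0.29 for C1qb and -0.01 for C1qc.

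In cDC2-like cells, C1qa was 85.2, 239 and 133 CPM in the 3 floxed anti-PD-1 mice with enough cells and 450, 313, 592 and 113 CPM in floxed isotype mice, which overlapped through 1 isotype mouse. Anti-PD-1 against isotype in floxed mice gave -1.32 (SE 0.43) for C1qa, -1.17 (SE 0.51) for C1qb, -1.18 (SE 0.41) for C1qc, -1.69 (SE 0.55) for C3ar1 and -1.47 (SE 0.59) for Cfb, with edgeR adjusted p from 0.688 to 0.820. These were 5 of 6 genes tested at an unadjusted p under 0.05, where 2.78% of all genes were lower and 0% passed adjustment. Macrophage markers summed to 820 ± 118 CPM in the anti-PD-1 mice (range 687 to 912) and 1542 ± 617 CPM in the isotype mice (range 906 to 2326), with 7 of 8 lower; their part was not tested. All 5 changes had the other sign when cells were assigned by another hashtag rule. Under that rule 21785 cells were assigned, against 17239, and they were also clustered and named anew, so the classes held other cells.

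In fibroblast-like cells, LysM-Cre against floxed averaged over treatments gave 1.29 (SE 0.38) for C1qa, 1.22 (SE 0.37) for C1qb, 1.34 (SE 0.37) for C1qc and 0.89 (SE 0.38) for C3ar1, each with an edgeR adjusted p of 0.846. Under anti-PD-1 the C1q changes were 1.74 (SE 0.58), 1.62 (SE 0.56) and 1.73 (SE 0.57), with an adjusted p of 0.841; under the other hashtag rule they were 0.12, 0.04 and 0.07, and those averaged over treatments 0.43, 0.36 and 0.47, with 0.54 for C3ar1. Of all genes, 2.90% and 2.64% were higher at an unadjusted p under 0.05 in these contrasts, and 0% passed adjustment. C1qa also averaged lower with anti-PD-1, by -0.90 (SE 0.38, adjusted p = 0.347) over genotypes and -1.35 (SE 0.56, adjusted p = 0.545) in floxed mice, where 6.26% and 3.99% of all genes were lower and 0.145% and 0.0290% passed adjustment. Both changes had the other sign under the other hashtag rule, at 0.34 over genotypes and 0.64 in floxed mice. Macrophage markers summed to 1825 ± 1095 CPM in LysM-Cre anti-PD-1, 716 ± 257 in floxed anti-PD-1, 1923 ± 634 in LysM-Cre isotype and 1204 ± 999 CPM in floxed isotype mice, with 8 of 8 higher in LysM-Cre mice; their part was not tested. In NK-like cells, LysM-Cre against floxed under anti-PD-1 gave 0.53 (SE 0.25, edgeR adjusted p = 0.887) for C1qa and 0.69 for C1qb. C1qc had the opposite sign, at -0.50 (SE 0.35, adjusted p = 0.945), and under the other hashtag rule C1qa was 1.67. Of 5837 genes, 145 were higher at an unadjusted p under 0.05. For anti-PD-1 in floxed mice C1qb gave -0.72 (SE 0.31, adjusted p = 0.967), and 0.17 under the other hashtag rule. There 106 of the 5837 genes were lower at the unadjusted threshold, and 0% of genes passed adjustment in both contrasts.

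C3, the component on which all complement pathways converge, had its highest means in monocyte-like and neutrophil-like cells. It averaged 179 ± 42.5 CPM in monocyte-like cells, 116 ± 71.0 in neutrophil-like, 50.01 ± 25.8 in macrophage-like, 15.4 ± 11.6 in regulatory T-like and 8.95 ± 6.74 CPM in fibroblast-like cells, and under 7 CPM in cDC2-like, mast or basophil-like, CD8 T-like, NK-like and CD4 T-like cells. No neighbours in this order were apart. Monocyte-like cells held 79.3% of all C3 UMIs, and 16.6 ± 4.50% of them had a C3 UMI at 1000 UMIs per cell, against 0.215 ± 0.370% of CD8 T-like cells. Among monocyte-like clusters, C3 was 304 CPM in cluster 11 and 221 CPM in cluster 7, which had only 120 CPM of C1qa, against 102 to 168 CPM in the other 4. The genes most like C3 across classes were Il27 (0.92), Vnn3 (0.91) and Gda (0.91).

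Cfb, the alternative pathway protease, averaged 249.2 ± 96.5 CPM in monocyte-like and 128 ± 75.7 CPM in macrophage-like cells, then 39.0 ± 25.3 CPM in regulatory T-like and 30.3 ± 26.1 CPM in fibroblast-like cells, with no neighbours apart. Monocyte-like cells held 73.5% of its UMIs, and 19.9 ± 7.002% had a Cfb UMI at 1000 UMIs per cell, against 1.305 ± 1.37% of CD8 T-like cells. Its level differed between clusters of both classes. It was 599 CPM in monocyte-like cluster 11, 397 in cluster 8 and 344 in cluster 0, but 47.9 in cluster 13 and 38.2 CPM in cluster 7; it was 245 CPM in macrophage-like cluster 14, 95.8 in cluster 2 and 68.2 CPM in cluster 15. Cfb and C3 were weakly related across cells (r = 0.32 in macrophage-like and 0.25 in monocyte-like cells). Genes with a pattern like that of Cfb across classes included Zfp703 (0.92) and Mfsd1 (0.92).

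Among the 8 genes, Cfb and C3 had the largest log2 changes between conditions in macrophage-like cells, and neither passed after adjustment. Cfb was 85.6, 159, 166 and 299 CPM in the LysM-Cre mice given anti-PD-1, 71.0, 22.9, 93.3 and 27.2 CPM in floxed anti-PD-1 mice, 127, 199, 132 and 41.97 CPM in LysM-Cre isotype mice and 162, 201, 198 and 71.6 CPM in floxed isotype mice. The floxed anti-PD-1 mice were lowest as a group, and 1 of them lay above the lowest LysM-Cre anti-PD-1 mouse. C3 was 45.6, 54.1, 71.4 and 75.2 CPM in the LysM-Cre mice given anti-PD-1, against 41.0, 19.3, 36.3 and 18.1 CPM in floxed anti-PD-1 mice, without overlap. It was 43.2, 56.9, 55.6 and 18.3 CPM in LysM-Cre isotype mice and 29.6, 112, 83.1 and 40.1 CPM in floxed isotype mice, which overlapped.

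Under anti-PD-1, LysM-Cre against floxed gave 1.72 (SE 0.52, edgeR adjusted p = 0.264) for Cfb and 1.10 (SE 0.46, adjusted p = 0.343) for C3, where 0% of genes passed adjustment and 6.46% were higher at an unadjusted p under 0.05. In floxed mice, anti-PD-1 against isotype gave -1.53 (SE 0.51, adjusted p = 0.229) for Cfb and -1.19 (SE 0.44, adjusted p = 0.255) for C3, where 0.134% of genes passed adjustment and 7.26% were lower at an unadjusted p under 0.05. The interaction, the anti-PD-1 difference in LysM-Cre minus that in floxed mice, was 2.04 (SE 0.71) for Cfb and 1.70 (SE 0.62) for C3 (adjusted p = 0.729 each), where 0% passed adjustment and 3.57% were higher at an unadjusted p under 0.05. These 3 contrasts share the floxed anti-PD-1 mice. Over the 8 genes the median log2 change was 0.23 for genotype under anti-PD-1, 0.02 for anti-PD-1 in floxed mice and -0.02 for the interaction, against 0.01, -0.01 and 0.01 over all genes tested. Cfb and C3 are singled out here for the largest changes of the 8, so their distance from these medians follows from that choice. For anti-PD-1 averaged over genotypes, 0.196% of genes passed adjustment and none of the 8 did. Without floxed isotype mouse 2 the C3 change in floxed mice was -0.77, and in pool E5 alone the C3 change between genotypes under anti-PD-1 was 0.65.

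The macrophage-like clusters with enough mice, 2 and 15, differed in these values. In cluster 2, the larger, Cfb averaged 144 ± 57.7 CPM in LysM-Cre anti-PD-1 (n = 3), 38.7 ± 28.0 in floxed anti-PD-1, 92.9 ± 34.6 in LysM-Cre isotype and 137 ± 65.0 CPM in floxed isotype mice (n = 4 each). The Cfb changes in this cluster were 2.11 (SE 0.47, edgeR adjusted p = 0.603) between genotypes under anti-PD-1, -1.99 (SE 0.44, adjusted p = 0.125) for anti-PD-1 in floxed mice and 2.81 (SE 0.61, adjusted p = 0.444) for the interaction, where 0.0253%, 0.0380% and 0.0127% of 7901 genes passed adjustment. C3 gave 1.69 (SE 0.64), -1.28 (SE 0.61) and 3.09 (SE 0.89) in the same contrasts (adjusted p from 0.506 to 0.666). In cluster 15, genotype under anti-PD-1 gave 0.51 (SE 0.60, adjusted p = 0.929) for Cfb and -0.31 (SE 0.85, adjusted p = 0.979) for C3. Anti-PD-1 against isotype in floxed mice gave -1.52 (SE 0.52) for Cfb and -1.77 (SE 0.61) for C3 there (adjusted p = 0.195 each). The interaction in cluster 15 was 1.48 (SE 0.79) for Cfb and 0.78 (SE 1.05) for C3. The difference between the clusters was not tested. Monocyte-like cells carry more C3 and Cfb. Monocyte markers summed in macrophage-like cells to 832 ± 285 CPM in LysM-Cre anti-PD-1 and 1042 ± 781 CPM in floxed anti-PD-1 mice. They summed to 1142 ± 636 CPM in LysM-Cre isotype and 1393 ± 500 CPM in floxed isotype mice, and their part was not tested. The sum is a limited measure of monocyte RNA. In macrophage-like cells F13a1 (317 CPM), Fn1 (309 CPM) and Ccr2 (301 CPM) were its highest markers, and F13a1 was lower in monocyte-like cells (245 CPM). Ly6c2, Plac8, Chil3 and Vcan were at 78.7 CPM or less in macrophage-like cells. In monocyte-like cells, Cfb averaged 313 ± 90.9 CPM in LysM-Cre anti-PD-1, 217 ± 102 in floxed anti-PD-1, 193 ± 113 in LysM-Cre isotype and 274 ± 57.5 CPM in floxed isotype mice, and C3 averaged 190 ± 36.9 CPM in LysM-Cre anti-PD-1, 194 ± 61.3 in floxed anti-PD-1, 147 ± 34.9 in LysM-Cre isotype and 184 ± 29.8 CPM in floxed isotype mice.

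**Figure D4:**
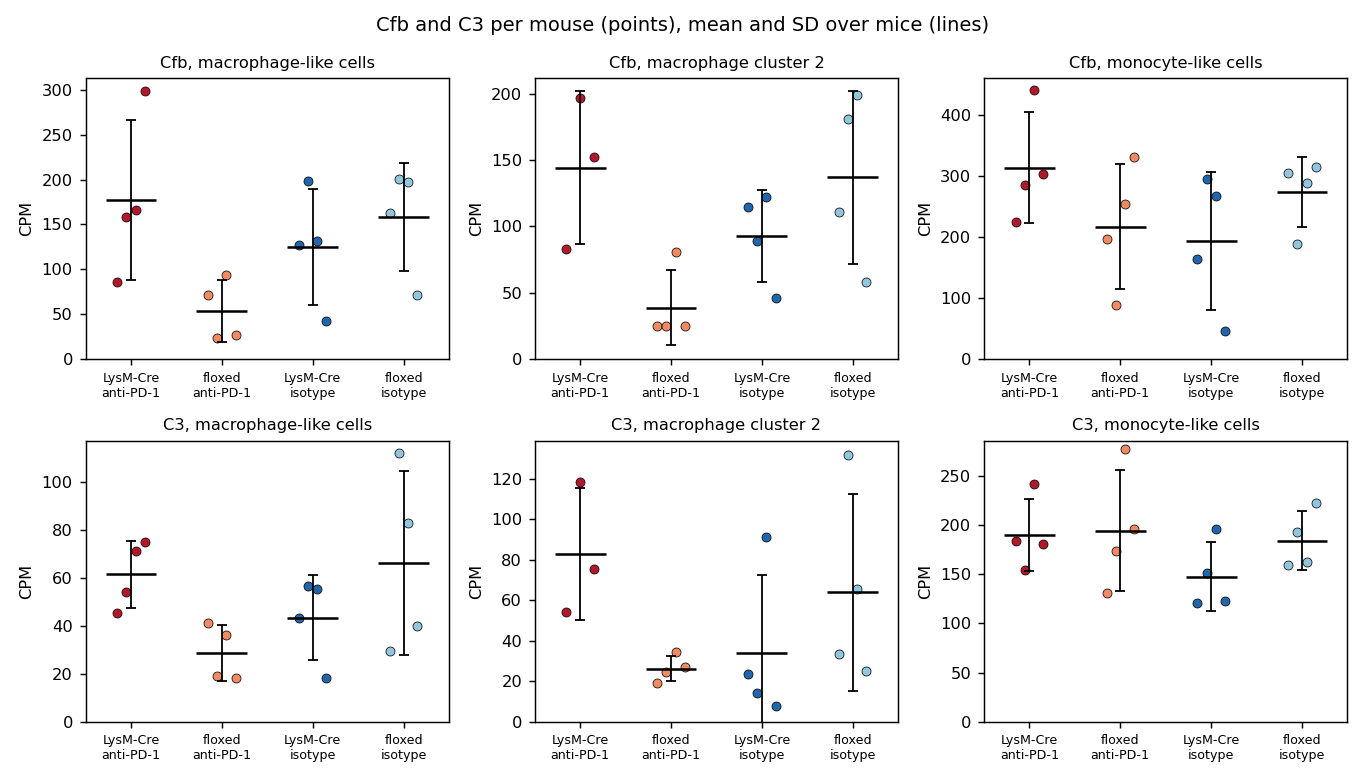
Cfb (top) and C3 (bottom) in each mouse (points, CPM of summed counts) in all macrophage-like cells, in macrophage-like cluster 2 and in monocyte-like cells, with lines for the mean and SD over the mice of each condition. In macrophage-like cells the floxed anti-PD-1 mice have the lowest mean, at 53.6 CPM for Cfb and 28.7 CPM for C3, and single mice overlap with those of other conditions.

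Cfp, whose product properdin stabilises the alternative pathway enzyme, had its highest level in cDC2-like cells, a class named from markers of type 2 conventional dendritic cells. It averaged 610 ± 103 CPM in cDC2-like cells (n = 11), apart from the next class, 323 ± 60.7 CPM in macrophage-like, 257 ± 53.9 in monocyte-like and 148 ± 44.0 CPM in neutrophil-like cells. Macrophage-like and monocyte-like cells were not apart, whereas monocyte-like and neutrophil-like cells were, and the other classes with at least 3 mice were below 60 CPM. Over all cells of the classes with fewer mice, Cfp was 202 CPM in red cell-like, 173 in pDC-like, 61.6 in mature DC-like and 59.8 CPM in B-like cells. At 1000 UMIs per cell, 41.7 ± 10.99% of cDC2-like cells had a Cfp UMI, against 1.87 ± 2.38% of CD8 T-like cells. Monocyte-like cells, the largest class, held 47.2% of Cfp UMIs, macrophage-like cells 30.9% and cDC2-like cells 13.4%. In cDC2-like cells Cfp was 532, 591 and 818 CPM in floxed anti-PD-1 mice, 651, 547, 526 and 732 CPM in LysM-Cre isotype mice and 548, 602, 472 and 690 CPM in floxed isotype mice, which all overlapped. In macrophage-like cells Cfp averaged 316 ± 60.8 CPM in LysM-Cre anti-PD-1, 328 ± 28.7 in floxed anti-PD-1, 323 ± 104 in LysM-Cre isotype and 326 ± 54.2 CPM in floxed isotype mice, with log2 changes from -0.05 to 0.05 over the 7 contrasts. The most similar genes were Tmem50b (0.99), Cd300a (0.96) and Aph1c (0.94).

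C3ar1, the receptor gene of C3a, was highest in macrophage-like cells. It averaged 418 ± 67.6 CPM in macrophage-like cells, 225 ± 44.2 CPM in monocyte-like cells and 73.7 ± 62.8 CPM in mast or basophil-like cells (n = 3), with the first 2 steps apart, and 52.7 CPM or less in the other classes with at least 3 mice. Over all cells of the classes with fewer mice, C3ar1 was 291 CPM in red cell-like, 81.2 in mature DC-like, 68.7 in B-like and 14.1 CPM in pDC-like cells. At 1000 UMIs per cell, 31.7 ± 4.49% of macrophage-like and 1.08 ± 1.02% of CD8 T-like cells had a C3ar1 UMI. In monocyte-like clusters it ranged from 42.7 CPM in cluster 7 to 275 CPM in cluster 13, and a mast or basophil-like cluster of 33 cells (cluster 27) had 332 CPM against 39.9 CPM in the other (cluster 20). In macrophage-like cells C3ar1 averaged 446 ± 58.5 CPM in LysM-Cre anti-PD-1, 365 ± 101 in floxed anti-PD-1, 436 ± 40.0 in LysM-Cre isotype and 425 ± 49.5 CPM in floxed isotype mice, and none of 7 contrasts passed (log2 changes -0.18 to 0.30). Within monocyte-like cluster 11, C3ar1 averaged 110 ± 52.2 CPM in floxed anti-PD-1 (n = 3) and 264 ± 60.1 CPM in floxed isotype mice (n = 4), a change of -1.31 (SE 0.27, edgeR adjusted p = 0.127). In that contrast 4.62% of all genes of cluster 11 passed the unadjusted threshold in either direction and 0.0131% the adjusted one. The same contrast gave -0.79 (SE 0.27, adjusted p = 0.547) in cluster 0, -0.34 (SE 0.23, adjusted p = 0.908) in cluster 1, -0.22 (SE 0.12, adjusted p = 0.658) in macrophage-like cluster 2 and 0.06 (SE 0.23, adjusted p = 0.943) in macrophage-like cluster 15. The cluster 11 value was singled out after it was seen. Genes with a pattern like that of C3ar1 included Apoe (0.93), a marker used to name the macrophage-like clusters, and Cx3cr1 (0.93).

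C5ar1, the receptor gene of the neutrophil attractant C5a, had its highest RNA level in neutrophil-like cells. It averaged 443 ± 60.9 CPM in neutrophil-like cells (n = 14), 156 ± 50.6 CPM in macrophage-like and 129 ± 38.7 CPM in monocyte-like cells, with the first step apart and the second not, and 35.2 CPM or less in the other classes with at least 3 mice. Over all cells of the classes with fewer mice, C5ar1 was 128 CPM in red cell-like, 39.9 in B-like, 21.5 in mature DC-like and 5.12 CPM in pDC-like cells. At 1000 UMIs per cell, 33.9 ± 4.80% of neutrophil-like, 13.2 ± 5.26% of macrophage-like, 10.9 ± 2.98% of monocyte-like and 0.321 ± 0.598% of CD8 T-like cells had a C5ar1 UMI. Among macrophage-like clusters C5ar1 was lowest in cluster 14, which had the highest C1q and Cfb levels: it was 66.3 CPM there, 125 in cluster 15 and 225 CPM in cluster 2. In neutrophil-like cells C5ar1 was 384, 528, 344 and 463 CPM in the LysM-Cre mice given anti-PD-1, 417 and 427 CPM in 2 floxed anti-PD-1 mice, 440, 422, 457 and 401 CPM in LysM-Cre isotype mice and 429, 532, 396 and 560 CPM in floxed isotype mice, which all overlapped. The 2 contrasts with enough mice gave -0.09 and 0.06 on the log2 scale, at 0% of 2522 genes past adjustment. In macrophage-like cells C5ar1 averaged 125 ± 54.0 CPM in LysM-Cre anti-PD-1, 188 ± 32.0 in floxed anti-PD-1, 143 ± 57.7 in LysM-Cre isotype and 170 ± 49.3 CPM in floxed isotype mice, and no contrast passed (lowest adjusted p = 0.445). The genes most like C5ar1 were Gm5150 (0.97), Aatk (0.95) and B430010I23Rik (0.94).

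The protein made from C5ar1, C5aR1, was measured in the same cells by an antibody against CD88, its other name. As shares of all counts of their kind, protein and RNA ranked the myeloid classes differently. CD88 averaged 46.9 ± 13.6 antibody counts per cell in macrophage-like (n = 16) and 25.9 ± 6.65 in monocyte-like cells (n = 16). It averaged 15.9 ± 2.92 in neutrophil-like (n = 14) and 1.77 ± 0.965 in NK-like cells (n = 14). C5ar1 RNA in CPM was highest in neutrophil-like cells, but per cell it was highest in macrophage-like cells. There were 5177 C5ar1 UMIs in 2491 macrophage-like, 2499 in 1729 neutrophil-like and 7866 in 5665 monocyte-like cells. Neutrophil-like cells held few gene UMIs (median 2891, against 12237 in macrophage-like cells), but this did not extend to antibody counts. Over all cells, the CD11b antibody alone averaged 1953 counts per neutrophil-like cell and 415 per macrophage-like cell. Counts per cell are not corrected for the total antibody count of a cell. As a share of all antibody counts the order was the same: 25476 ± 8101 antibody CPM in macrophage-like, 13323 ± 3193 in monocyte-like and 5047 ± 1071 in neutrophil-like cells. That share is limited in neutrophil-like cells, where CD11b alone took 591775 antibody CPM over all cells, against 230301 in macrophage-like cells. Within macrophage-like clusters protein and RNA ran in the same order, with 24.1 counts per cell in cluster 14, 43.8 in cluster 15 and 60.5 in cluster 2. Monocyte-like clusters did not follow 1 order. Cluster 13 had their highest C5ar1 RNA, 220 CPM, but 22.7 CD88 counts per cell, against 38.2 in cluster 1 at 147 CPM.

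**Figure D5:**
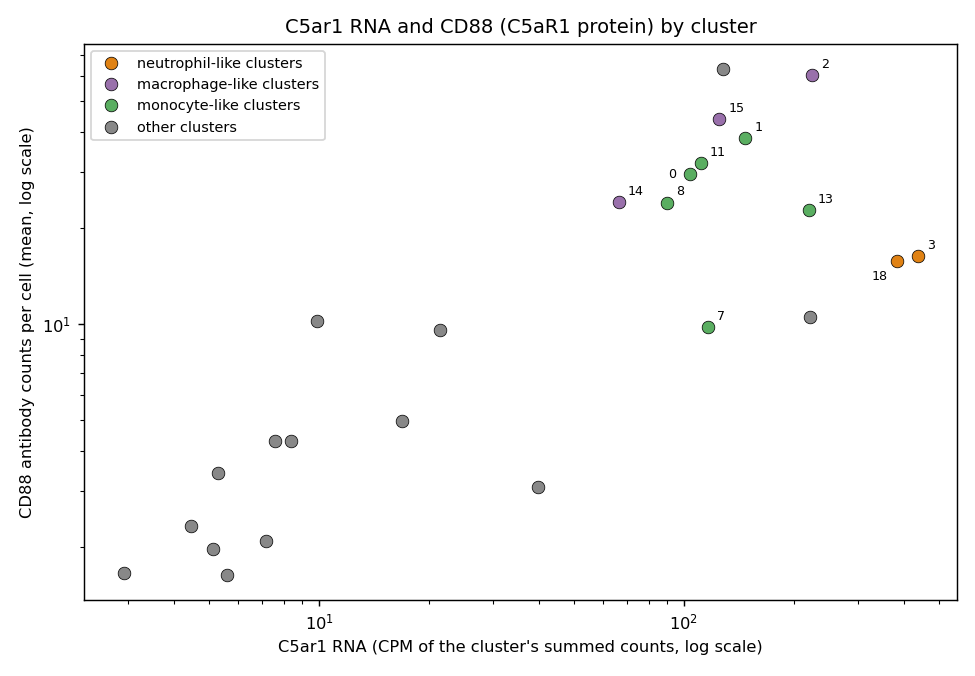
C5ar1 RNA (horizontal, CPM of the cluster's summed counts, log scale) against CD88 antibody counts per cell (vertical, log scale) in the 25 named clusters, with cluster numbers for neutrophil-like, macrophage-like and monocyte-like clusters. Neutrophil-like clusters 3 and 18 lie furthest right, at 437 and 384 CPM, but below most macrophage-like and monocyte-like clusters in antibody.

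Antibodies against 5 complement receptors or regulators (CD88, CD11b, CD11c, CD21/CD35 and CD55) were tested. Of their 194 tests, 19 passed an unadjusted p under 0.05 and 1, of CD88, passed adjustment. Over all antibodies and fits, 10.3% of 3378 tests passed the unadjusted threshold. In 41 tests of CD88 by class and contrast, 8 were lower and 0 higher at that threshold, and 1 passed after adjustment over the antibodies. Over all antibodies and fits, 6.75% of the 3378 tests were lower at the unadjusted threshold. The 8 were 3 in NK-like, 2 in CD8 T-like and 1 each in CD4 T-like, cDC2-like and fibroblast-like cells, classes in which C5ar1 RNA averaged at most 10.2 CPM, and 7 of them were contrasts of anti-PD-1 with isotype. In NK-like cells CD88 was 1526, 1452 and 2199 antibody CPM in the LysM-Cre mice given anti-PD-1, 1142, 1545 and 1526 in floxed anti-PD-1 mice, 3151, 2510, 2156 and 6657 in LysM-Cre isotype mice and 4502, 4489, 3923 and 2944 antibody CPM in floxed isotype mice. The floxed groups did not overlap, and the LysM-Cre groups overlapped through 1 anti-PD-1 mouse. Anti-PD-1 against isotype averaged over genotypes gave -1.17 (SE 0.26, edgeR adjusted p = 0.0228), and 2.6% of 77 antibodies passed. C5ar1 RNA in NK-like cells was 4.22 ± 2.30 CPM, and CD88 counts there averaged 0.909 to 2.57 per cell by condition. The call did not pass in pool E6 alone (-0.96, adjusted p = 0.251). Leaving out 1 mouse at a time, it was lost for 9 of 14 mice, among them LysM-Cre isotype mouse 4 (-0.84). In macrophage-like, monocyte-like and neutrophil-like cells no CD88 contrast passed at either threshold.

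Across the whole design, 259 tests of the 8 genes were made in 41 fits of 9 classes, and 0 passed adjustment with edgeR; the lowest adjusted p was 0.129. DESeq2 called 0 of 255. At an unadjusted p under 0.05, edgeR called 31 of 259 (11.97%; 18 higher, 13 lower), against 6.67% of tests over all genes, and DESeq2 31; macrophage-like cells gave 12 of 56, against 8.58% of tests over all their genes, and monocyte-like cells 0 of 56, against 7.93%. Within 5 monocyte-like and macrophage-like clusters, 42 of 232 tests (18.1%) were called at an unadjusted p under 0.05, against 6.66% over all genes, and 0 passed adjustment. These tests are not independent: the C1q genes were correlated across cells, and the 7 contrasts reuse the same 4 groups of mice. The shares called therefore show no excess by themselves. No complement gene was called in CD8 T-like cells, where the shares past adjustment over all genes were 0.0267% for genotype averaged over treatments and 0.0133% for genotype under anti-PD-1 and for anti-PD-1 in LysM-Cre mice, or in regulatory T-like cells, where 0.0157% passed for genotype under isotype. In NK-like cells 0.0171% passed for genotype averaged over treatments, with none of the 8 among them. Fewer cells of a state and less RNA per cell cannot be told apart within a class.

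A wider list of 46 complement genes was chosen with earlier results of these data known, and 21 of them had enough counts for a test in at least 1 class. Of 436 tests, 0 passed adjustment with edgeR and 58 (13.3%) were called at an unadjusted p under 0.05, against 6.67% of tests over all genes. Their contrasts reuse the same mice too, so this share shows no excess by itself. Among regulators, Cd55, which speeds decay of the C3-cleaving enzyme, was 308 CPM in B-like and 0.551 CPM in macrophage-like cells. Serping1, which encodes C1 inhibitor, was 28.3 CPM in fibroblast-like cells and under 1 CPM in macrophage-like cells. Of the receptor subunits, Itgam (CD11b of complement receptor 3) was 445 CPM in macrophage-like, 478 in monocyte-like and 427 CPM in neutrophil-like cells, and C5ar2, the second C5a receptor, was 57.0 CPM in neutrophil-like cells. In macrophage-like cells C4b, a classical pathway component, gave 1.86 (SE 0.49, edgeR adjusted p = 0.249) for LysM-Cre against floxed under anti-PD-1 and -1.79 (SE 0.48, adjusted p = 0.140) for anti-PD-1 in floxed mice. In fibroblast-like cells Serping1 gave 1.61 (SE 0.40, adjusted p = 0.118) for anti-PD-1 averaged over genotypes.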

How the data were processed

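Tumour CD45-positive cells of 16 mice were profiled in 2 pools of 8 hashtagged mice. The deposited matrices hold whole-number UMI counts per barcode of 32285 genes and 88 surface antibodies (89 are stated in the labels), made with Cell Ranger 6.1.2 per the file headers; the submitters' processing notes name version 3.0.1 and mm10. Barcodes with at least 500 gene UMIs, 200 genes and at most 10% mitochondrial UMIs were kept. Mice were assigned with HTODemux (Seurat 5.3.0), which found 8408 and 8831 singlets and 3836 and 4471 doublets in pools E5 and E6, and only singlets were used. Hashtags 8 and 9 are printed with 1 shared tag sequence in the labels, and both mark floxed isotype mice. Depth per mouse was 1546045 to 29701640 gene UMIs, so mice with few cells give less precise values.

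Clusters were made without complement genes (scanpy 1.11.5, leidenalg 0.10.2) and named from marker lists. The rule for leaving a cluster unnamed and the Scrublet threshold, an alternative, were set after the files were seen, and differences from the study may come from rebuilt names. Counts were summed per mouse and class (at least 20 cells, at least 3 mice per condition) and tested with edgeR 4.0.16 (quasi-likelihood, TMM, pool as a term, Benjamini-Hochberg adjustment over all genes of the class) in 7 contrasts; antibodies were tested likewise over all antibodies. DESeq2 1.42.0 was an alternative, and others were other scaling, no filter on low counts, no pool term, each pool alone, other cell filters and assignment, and leaving out each mouse. Leaving out barcodes shared by both pools, the fit within macrophage-like cluster 2 and all alternatives for antibodies were chosen after seeing the data. Scripts were tested on simulated counts. The 8 genes, the marker lists and the wider list were chosen with earlier results of these data known. By rule, the 8 genes were named in all classes with log2 changes where past an adjusted or unadjusted p of 0.05, genes of the wider list where so called or abundant in a class, and for each of the 8 the 3 genes most correlated with it across classes, of which some are not reported here; the cluster-level C3ar1 and C1qa values were added after they were seen. Mice are the replicates.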

Additional observations from a re-analysis of the deposited data

Results flagged for a closer look

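Among 82 groups of 4 mice checked, 12 held a mouse far from the other 3; chance flags about 1 in 20 groups. In monocyte-like cells, LysM-Cre anti-PD-1 mouse 2 was high for all C1q genes: C1qa was 2478 CPM against 1352 to 1406 in the other 3 mice, C1qb 3089 against 1496 to 1586, and C1qc 1559 against 696 to 798. The same mouse had 4310 CPM of C1qc in macrophage-like cells, against 3501 to 3624. Floxed anti-PD-1 mouse 1 was low for C1qa in monocyte-like cells, at 579 CPM against 1367 to 1444.

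In macrophage-like cells, LysM-Cre isotype mouse 3 was high at 6692 CPM of C1qa, against 5760 to 5849, and at 6388 CPM of C1qb, against 4992 to 5168. Floxed isotype mouse 1 had 5635 CPM of C1qb, against 4240 to 4420.

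For the CD88 antibody, floxed anti-PD-1 mouse 2 had 36003 antibody CPM in macrophage-like cells, against 22750 to 24153, and LysM-Cre anti-PD-1 mouse 3 had 8944 in monocyte-like cells, against 15301 to 16542. In neutrophil-like cells LysM-Cre anti-PD-1 mouse 4 had 4999, against 3948 to 4048, and floxed isotype mouse 2 had 7267, against 4642 to 4885. The causes were not tested.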

How the results depend on the processing

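Of 748 alternative log2 changes, 716 kept their direction and side of the threshold, 24 newly passed and 8 changed sign. No main change had passed, so a change that shrank but kept its sign counts among the 716. An example is C1qc in CD4 T-like cells with Scrublet doublets removed. Changes of the same sign with no adjusted p were also counted there, so the 716 do not measure how stable the sizes were. Of 90 alternative levels, 89 moved by less than 1 SD. With no filter on low counts, the complement genes past an adjusted p of 0.05 numbered 6 for genotype under isotype, 9 for genotype under anti-PD-1, 8 for anti-PD-1 in floxed mice, 1 for anti-PD-1 in LysM-Cre mice, 5 for the interaction, 6 for genotype averaged over treatments and 6 for treatment averaged over genotypes, against 0 in each with the filter. The cause was not tested. Leaving out each mouse gave 0 to 3 for genotype under isotype (3 without floxed isotype mouse 2, all in CD4 T-like cells) and 0 for the others. Pool E5 alone gave 1 for anti-PD-1 in floxed mice and 1 for treatment averaged over genotypes. Under the other hashtag rule, anti-PD-1 in floxed mice gave 0.17 for C1qb in NK-like cells, 0.55 for C1qa, 0.53 for C1qb, 0.78 for C1qc, 0.73 for C3ar1 and 0.44 for Cfb in cDC2-like cells and 0.64 for C1qa in fibroblast-like cells, where the average over genotypes was 0.34; C5ar1 in neutrophil-like cells was 323 CPM.

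Tests of the 5 complement antibodies past adjustment numbered 1 in the main fits, 5 with DESeq2 and 2 with DESeq2's size factors. They numbered 0 in pool E5 alone, 0 in pool E6 alone and 0 to 4 with 1 mouse left out. CD88 in NK-like cells was -0.96 in pool E6 alone and -1.30 to -0.84 with 1 mouse left out. Shares of cells with a UMI depend on depth. Without thinning they were 98.0% (C1qa, macrophage-like), 74.7% (C1qa, monocyte-like), 60.8% (C1qa, CD8 T-like), 59.7% (C3, monocyte-like), 54.5% (Cfb, monocyte-like), 93.1% (Cfp, cDC2-like), 84.2% (C3ar1, macrophage-like) and 65.3% (C5ar1, neutrophil-like). At 2000 UMIs they were 29.3% (C1qa, CD8 T-like), 25.5% (C3), 29.8% (Cfb), 60.1% (Cfp), 54.2% (C3ar1) and 55.2% (C5ar1) in the same classes. No paired analysis was possible because mouse numbers only name mice and the labels pair none across conditions.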
